A study of Mus musculus with 12 samples.

Results

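The miR-101 family of the mouse was examined in small RNA libraries from hepatocyte exosomes, as all rows of a deposited miRNA table whose name is miR-101a, miR-101b or miR-101c, with any arm. These are 5 of the 1965 mature miRNAs listed: mmu-miR-101b-3p and mmu-miR-101b-5p, the arms of the miR-101b hairpin, mmu-miR-101a-3p and mmu-miR-101a-5p, the arms of the miR-101a hairpin, and mmu-miR-101c (the species prefix is left out from here on). Of the 5, 3 had a value above 0 in at least 1 library, and these 3 passed the filter on low values that 267 miRNAs passed. The members were chosen by name, and the family was selected on the CPM of miR-101b-3p, the highest mean of the table, and on its course over the diet groups; its level and rank are therefore a description with no test, and its tests across diets are not independent of that choice.

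The libraries were made from exosomes, small vesicles released by cells, collected from cultures of primary mouse hepatocytes (Williams' E medium, fetal bovine serum). The 3 groups of 4 libraries each are hepatocytes of lean control mice, of mice fed a high-fat diet (HFD) over 4 weeks, and of mice fed it over 16 weeks. The lean libraries carry the diet label NCD. Strain, sex and age of the mice, and whether each library is a mouse of its own, are not given in the sources used here, so each p-value measures the spread between these libraries, which may be technical. Values are in CPM, reads scaled to a common total of the listed miRNAs, and whole reads could be recovered from them. Libraries held 13748 to 30430 miRNA reads in lean, 2352 to 4477 at 4 weeks and 20538 to 37596 at 16 weeks.

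A miRNA is cut from a hairpin RNA by the enzymes Drosha and Dicer, after which usually 1 arm of the duplex is kept in an Argonaute protein and the other is degraded. The retained strand finds its target messenger RNAs mainly through its seed, bases 2 to 8 from the 5′ end. In liver, miR-101 is known as a repressor of the histone methyltransferase Ezh2 and of the survival factor Mcl1, and its loss is a known feature of hepatocellular carcinoma.

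The sequences are shown because the 3p forms differ so little that the naming of a read rests on its ends and on 1 base. They are RefSeq entries of the GRCm38.p6 build, the assembly that mm10 denotes, and all 5 names matched. The seed is in capitals in each mature sequence:
miR-101b-3p: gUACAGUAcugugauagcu
miR-101a-3p: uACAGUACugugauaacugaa
miR-101c: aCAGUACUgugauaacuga
miR-101b-5p: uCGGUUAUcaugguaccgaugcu
miR-101a-5p: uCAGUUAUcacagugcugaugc
The miR-101b hairpin, with its 5p arm and then its 3p arm in capitals, reads as follows.
Mir101b: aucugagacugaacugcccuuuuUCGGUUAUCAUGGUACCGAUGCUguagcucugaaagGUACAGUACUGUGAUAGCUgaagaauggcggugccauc

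The 3 forms from 3p sequence share a run of 14 bases, acaguacugugaua, which only these 3 of 1738 mature entries of the RefSeq table hold. As listed, they start at successive bases, so that their seeds are shifted against each other by 1 base each (UACAGUA in miR-101b-3p, ACAGUAC in miR-101a-3p and CAGUACU in miR-101c). Counted from the 5′ end of miR-101b-3p, miR-101a-3p differs from it by G17A alone over 18 aligned bases, and miR-101c by G17A over 17. The 19 bases of miR-101c lie wholly within the 21 of miR-101a-3p, so a read of that stretch matches both names. The 5p arms of miR-101b and miR-101a differ at 5 of 22 aligned bases. The deposited values carry the label unique, which is not explained. How reads that match several miRNAs were assigned is otherwise not given in the sources used here. The split of reads among miR-101a-3p, miR-101b-3p and miR-101c is therefore uncertain, which bears on every value of miR-101b-3p and on its arm ratio below.

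The miR-101b hairpin lies at chr19:29135279-29135375 on the plus strand (GRCm38), in intron 8 of the protein-coding gene Rcl1, which is transcribed from the same strand. The miR-101a hairpin lies at chr4:101346945-101347027 on the minus strand, in exon 2 of the long noncoding transcript E130102H24Rik-201. Mature miR-101c is placed at chr9:3038680-3038698 on the minus strand, in no other annotated gene. No other miRNA hairpin lies within 100 kb of any of the 3.

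The mature 3p arm of miR-101b dominated the table in lean and 16-week exosomes and stood much lower at 4 weeks. In lean libraries 1 to 4, miR-101b-3p had 605106, 623135, 701905 and 547543 CPM. In the 4-week libraries it had 158502, 210884, 368327 and 271664 CPM. In the 16-week libraries it had 656985, 663011, 572235 and 523712 CPM. All 4-week values lay below all lean and all 16-week values, while the lean and 16-week values overlapped. The lowest lean library stood 1.49-fold above the highest 4-week library, and the lowest 16-week library 1.42-fold above it.

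As a share of all listed miRNA CPM, miR-101b-3p held 61.1%, 62.7%, 70.6% and 54.7% in lean libraries 1 to 4, with exact (Clopper-Pearson) 95% binomial intervals of at most 0.823 percentage points to either side. At 4 weeks the shares were 15.9%, 21.1%, 36.8% and 27.2%, with intervals of at most 1.67 percentage points to either side. At 16 weeks they were 65.0%, 66.0%, 57.1% and 52.4%, within at most 0.686 percentage points. These intervals cover counting error only, since reads without molecular identifiers are not independent molecules. The standard deviation (SD) between libraries was 18.3 times the binomial one in lean, 12.3 times at 4 weeks and 21.7 times at 16 weeks.

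**Figure D1:**
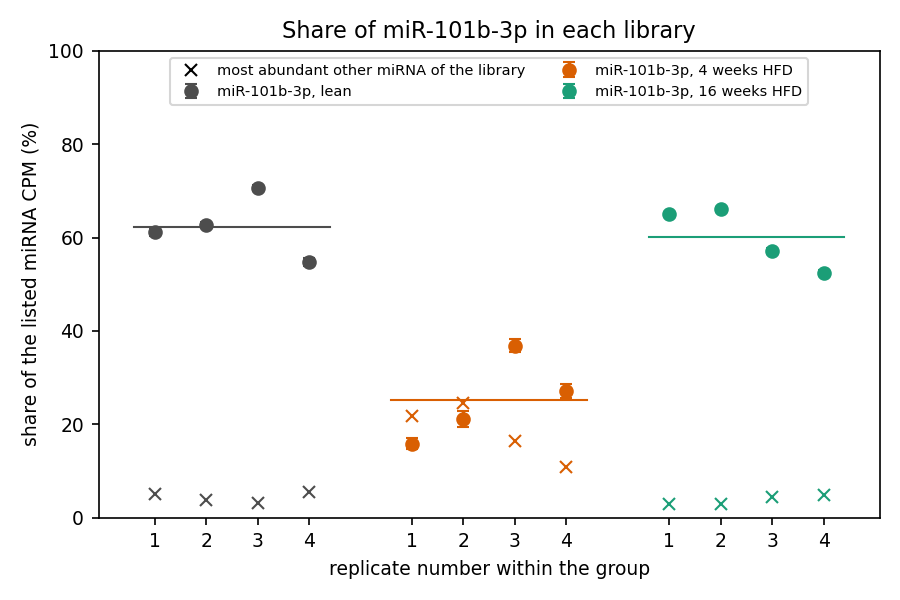
Share of the listed miRNA CPM (%) held by miR-101b-3p in each of the 12 libraries (dots with exact 95% intervals; lines are group means), beside the share of the most abundant other miRNA of the same library (crosses). The 4-week dots sit between 15.9% and 36.8%, below all others, and in 4-week libraries 1 and 2 the cross lies above the dot.

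In 10 of 12 libraries miR-101b-3p ranked first. The exceptions were 4-week library 1, where miR-5121 held 21.7%, and 4-week library 2, where miR-5099 held 24.7%. In the other libraries miR-101b-3p stood between 2.23-fold (4-week library 3) and 22.9-fold (lean library 3) above the miRNA that followed it.

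At 4 weeks of HFD, miR-101b-3p averaged 252344 ± 90093 CPM, against 619422 ± 63741 CPM in lean (SD, n = 4 each). Its log2 fold change was -1.36 (standard error, SE, 0.20; 95% interval -1.78 to -0.93; limma adjusted p = 0.000647), a level 0.39 of that in lean. Its share averaged 25.2% ± 9.01 at 4 weeks and 62.3% ± 6.53 in lean, a difference of -37.1 percentage points (exact permutation test, 2-sided, p = 0.0286, the smallest that 70 assignments allow, adjusted p = 0.0429 over 3 comparisons). The spread between 4-week libraries was wide, with 2.32-fold between the highest and the lowest. Without limma's mean-variance trend the fold missed the threshold (adjusted p = 0.0979).

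Many other miRNAs moved in the same comparison. Of 267 miRNAs tested, limma called 11.6% lower (31) and 9.36% higher (25) at 4 weeks, and the 4-week libraries were the shallowest of the 3 groups. Scaled to the sum of all miRNAs other than miR-101b-3p, the split was 51 lower and 13 higher, and scaled to the geometric mean of the 57 other miRNAs with a value above 0 in all libraries, 48 lower and 16 higher. The median log2 fold change of all 267 was -1.27, close to that of miR-101b-3p, but 66 of the 267 had no read in any 4-week library. Over the 58 miRNAs above 0 in all 12 libraries the median was 0.76, and miR-101b-3p lay 2.12 below it, with 8 of the other 57 lower and 49 higher. One read is worth 223 to 425 CPM at 4 weeks and 32.9 to 72.7 CPM in lean. A miRNA low at 4 weeks therefore tends to drop out of this set, whose median and ranks lean towards miRNAs high there. The scaling to the geometric mean rests on the same set. Scaling to the sum shifted the median of all tested miRNAs by -0.79 and scaling to the geometric mean by -0.52. The log2 fold changes of miR-101b-3p were then -2.36 and -2.11. The part of the depth gap in the result was not tested, and a count test that takes each library's depth into account gave a log2 fold change of -1.86 (edgeR on the recovered reads, adjusted p = 0.000276), in a background where it called 30.6% of 72 miRNAs lower and 25% higher. Over a wider set of 260 miRNAs with at least 1 read in 4 libraries it called 10.8% lower and 6.15% higher, with miR-101b-3p at -2.27. The groups did not overlap, on the lower side, for 11.6% of the 267. In shares of a library, less miR-101b-3p per vesicle, more of other miRNAs and a different mix of releasing cells cannot be told apart.

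At 16 weeks of HFD the level of miR-101b-3p was near that of lean, at 603986 ± 67688 CPM against 619422 ± 63741 CPM in lean (SD, n = 4 each). The log2 fold change was -0.04 (SE 0.20, limma adjusted p = 0.966). Its 95% interval of -0.46 to 0.39 spans levels of 0.726 to 1.31 times lean, so differences within that range were not detectable with these libraries. The share was 60.1% ± 6.52 at 16 weeks and 62.3% ± 6.53 in lean (2-sided exact permutation, adjusted p = 0.686). In this comparison limma called 1.12% of the 267 miRNAs higher and 1.5% lower; edgeR called 18.1% of its 72 higher and 16.7% lower, and over the wider set 6.54% higher and 7.31% lower. The 2 groups did not overlap in 5.62% of the miRNAs on the higher side and 9.74% on the lower side; for miR-101b-3p they did.

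Between the 2 HFD durations, miR-101b-3p was higher at 16 weeks, with 603986 ± 67688 CPM against 252344 ± 90093 CPM at 4 weeks (SD, n = 4 each). The log2 fold change was 1.32 (SE 0.20; 95% interval 0.90 to 1.75; limma adjusted p = 0.00099), and the count test gave 1.82 (edgeR adjusted p = 0.000335). The share differed by 34.9 percentage points (exact permutation test, 2-sided, adjusted p = 0.0429). This comparison uses the same 4-week libraries as that with lean and is not independent of it. The 2 HFD groups did not overlap for miR-101b-3p, as for 7.87% of the miRNAs on the higher and 5.99% on the lower side. EdgeR called 20.8% of 72 in either direction, and over the wider set 8.46% higher and 3.85% lower. Limma called 6.37% of the miRNAs higher (17) and 4.12% lower (11), or 29 higher and 6 lower when scaled to the sum of the other miRNAs and 24 higher and 9 lower when scaled to the geometric mean. Without the mean-variance trend miR-101b-3p missed the threshold here too (limma adjusted p = 0.14).

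**Figure D2:**
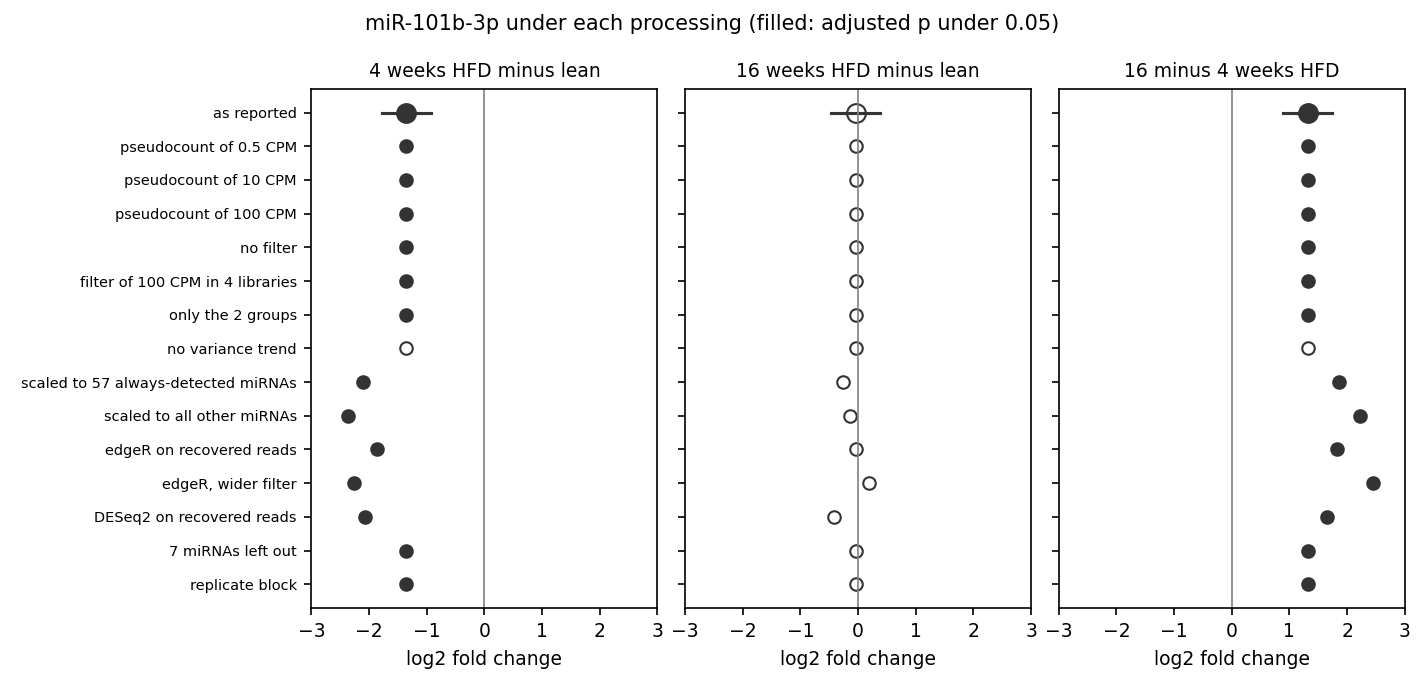
Log2 fold change of miR-101b-3p (x axis) in the 3 comparisons under the reported processing (top, with its 95% interval) and 14 others; filled points have an adjusted p under 0.05. At 4 weeks against lean all points lie between -2.36 and -1.36, and at 16 weeks against lean they scatter from -0.42 to 0.19 with none filled.

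The other arm of the hairpin, miR-101b-5p, is the strand usually discarded, and it was present at a few reads per library. Lean libraries 1 to 4 held 0, 1, 2 and 1 reads of it, or 0, 32.9, 83.6 and 68.2 CPM. The 4-week libraries held 1, 1, 1 and 2 reads, which in their shallow depth equal 256, 425, 223 and 599.7 CPM. The 16-week libraries held 1, 2, 7 and 3 reads, or 26.6, 68.3, 299 and 146 CPM. All 4-week CPM values lay above all lean ones, which 9.74% of the miRNAs tested did, yet 3 of the 4 stand for a single read.

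Pooled over the group, 5 reads of miR-101b-5p in 14063 at 4 weeks gave 356 CPM with an exact Poisson 95% interval of 115 to 830 CPM. In lean, 4 reads in 82781 gave 48.3 CPM with an interval of 13.2 to 124 CPM. At 16 weeks, 13 reads in 110777 gave 117 CPM, with an interval of 62.5 to 201 CPM. These intervals cover counting error only and overlap by a little between 4 weeks and lean.

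Tested over libraries, miR-101b-5p missed the threshold in all 3 comparisons. At 4 weeks it averaged 376 ± 173 CPM, against 46.1 ± 37.4 CPM in lean (SD, n = 4 each; log2 fold change 4.05, SE 1.46, limma adjusted p = 0.0645). That fold rests on the pseudocount, since 1 lean library is at 0, and it was 1.67 with a pseudocount of 100 CPM (limma adjusted p = 0.0322) and 1.74 in the count test over miRNAs with at least 1 read in 4 libraries (edgeR adjusted p = 0.274). At 16 weeks against lean the log2 fold change was 2.18 (SE 1.46, limma adjusted p = 0.48), and at 16 weeks against 4 weeks it was -1.86 (SE 1.46, limma adjusted p = 0.418). Lean library 1, the one at 0, decides the size of the lean comparisons: without it the log2 fold changes were 2.58 at 4 weeks and 0.72 at 16 weeks (limma adjusted p = 0.157 and 0.869). Of the 3 members tested, limma thus called 1 lower at 4 weeks than in lean and 1 higher at 16 than at 4 weeks, in each case miR-101b-3p.

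**Figure D3:**
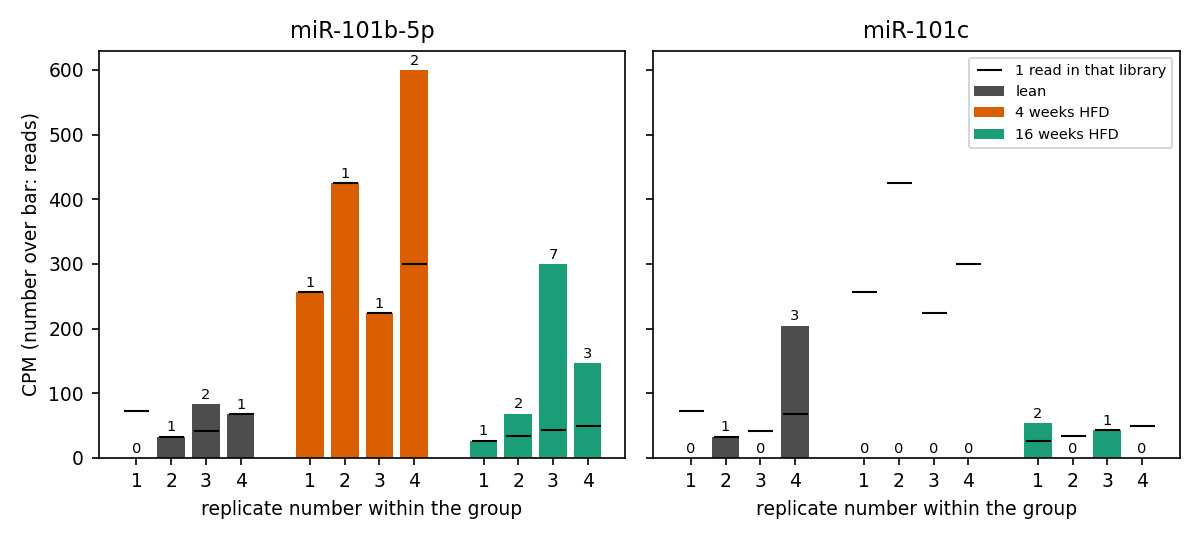
CPM of miR-101b-5p and miR-101c in each library (bars, with the number of reads above) and the CPM that 1 read is worth there (black dashes). At 4 weeks, 3 of the 4 bars of miR-101b-5p end at the dash for 1 read.

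The ratio of the arms does not depend on how a library is scaled. Over all 12 libraries the hairpin had 124018 reads of its 3p arm and 22 of its 5p arm, a 5p share of 0.0177% (exact 95% binomial interval 0.0111% to 0.0269%) or 5637 reads of 3p for 1 of 5p. The 5p share was 0, 0.00527%, 0.0119% and 0.0124% in lean libraries 1 to 4, where the exact 95% binomial interval for 0 of 8319 hairpin reads in library 1 reaches 0.0443%. It was 0.162%, 0.201%, 0.0606% and 0.22% in the 4-week libraries and 0.00405%, 0.0103%, 0.0523% and 0.0279% in the 16-week libraries. Every 4-week library lay above every library of the other groups. The smallest step of the share depends on depth, however. At 4 weeks, 1 read of the 5p arm gives at least 0.0606% (1 of 1650 hairpin reads in library 3). This exceeds the 0.0523% of the highest other library. The separation, and with it the smallest p-value of the permutation test below, is therefore reached once each 4-week library holds 1 such read.

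The mean 5p share was 0.161% ± 0.0712 at 4 weeks and 0.00741% ± 0.00592 in lean (SD, n = 4 each; exact permutation test, 2-sided, p = 0.0286, adjusted p = 0.0429 over 3 comparisons). At 16 weeks it was 0.0236% ± 0.0216, lower than the 4-week share (exact permutation adjusted p = 0.0429) and not separated from the lean share (exact permutation adjusted p = 0.257). Pooled over libraries, the share was 0.136% at 4 weeks (exact 95% binomial interval 0.0442% to 0.317%) and 0.00768% in lean (0.00209% to 0.0196%). The pooled lean share rests on 4 reads of the 5p arm. At that share, the 3674 hairpin reads of the 4-week group would hold 0.282 reads of the 5p arm, and 5 were found. The 68250 of the 16-week group would hold 5.24, and 13 were found. These counts were not tested and leave out the spread between libraries. The lower 3p level at 4 weeks enters the 5p share as its denominator, and all of the 4-week shares rest on 1 or 2 reads of the 5p arm. Without any one lean library the adjusted p was 0.0857 in the same exact permutation test, and without any one 16-week library so was that between 16 and 4 weeks.

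**Figure D4:**
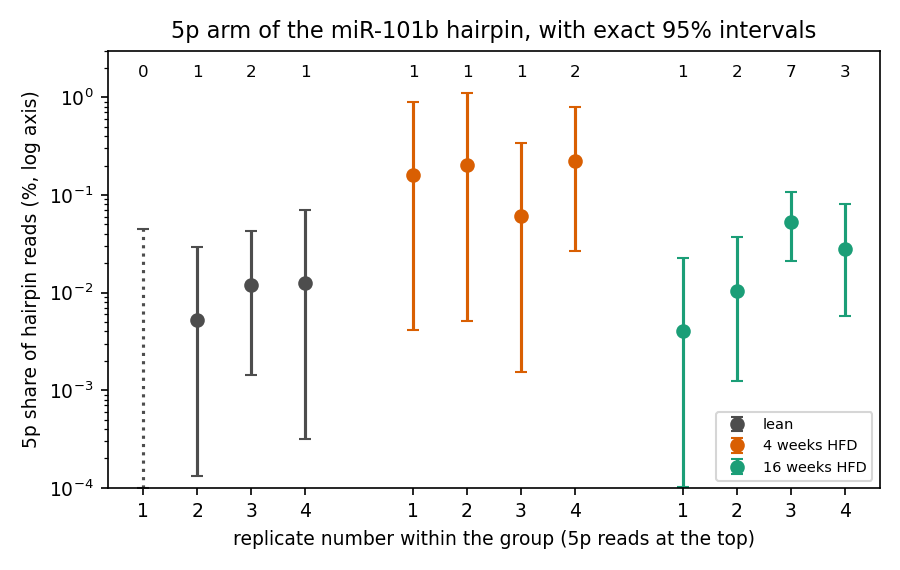
Share of the miR-101b hairpin reads that are 5p (%, log axis) in each library with exact 95% binomial intervals; the number of 5p reads stands at the top, and the dotted line is the interval of the lean library with 0. The 4-week points lie between 0.0606% and 0.22%, above all others, with wide intervals.

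The remaining names were rare. Reads listed as miR-101c numbered 0, 1, 0 and 3 in lean libraries 1 to 4 (0, 32.9, 0 and 204 CPM), 0 in each 4-week library, and 2, 0, 1 and 0 at 16 weeks (53.2, 0, 42.8 and 0 CPM). At the 4-week depth, 3 reads in 14063 equal 213 CPM, above the lean level, so a difference in reads given this name was not detectable there. The limma fit gave adjusted p = 0.25 for 4 weeks over lean, 0.966 for 16 weeks over lean and 0.343 between the HFD durations. Both arms of miR-101a are listed at 0 in all 12 libraries. So are miR-22-3p, miR-26a-5p, miR-27b-3p and miR-148a-3p, which liver is known to express, so a listed 0 sets no limit on the level of miR-101a. Any reads of miRNAs listed at 0 are also missing from the total behind the shares above.

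By the spread of the log2 ratio to miR-101b-3p over the 12 libraries, a measure that no scaling of a library alters, the miRNA most like it was miR-1843a-5p, with an SD of 0.38 on the log2 scale. It was followed by miR-1843b-5p (0.42), miR-3068-5p (0.47), miR-203b-3p (0.48) and miR-872-5p (0.48), while the median over the 57 other miRNAs above 0 in all libraries was 1.35. The level of miR-1843a-5p averaged 37556 ± 10393 CPM in lean, 12507 ± 5929 CPM after 4 weeks of HFD and 29831 ± 4513 CPM after 16 (SD, n = 4 each). That of miR-872-5p averaged 7425 ± 1709 CPM in lean, 2257 ± 1053 CPM after 4 weeks of HFD and 6383 ± 943 CPM after 16. The 5 were picked for their likeness in these same libraries, so they get no test of their own.

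The 3 most abundant other miRNAs ran the other way at 4 weeks. Together, miR-5099, miR-5121 and miR-151-3p held a mean share of 8.67% (SD 3.72) in lean, 35.6% (SD 10.3) after 4 weeks of HFD and 7.83% (SD 2.31) after 16, over 4 libraries each. As shares of a fixed total, their gain and the loss of miR-101b-3p are not separate measurements.

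**Figure D5:**
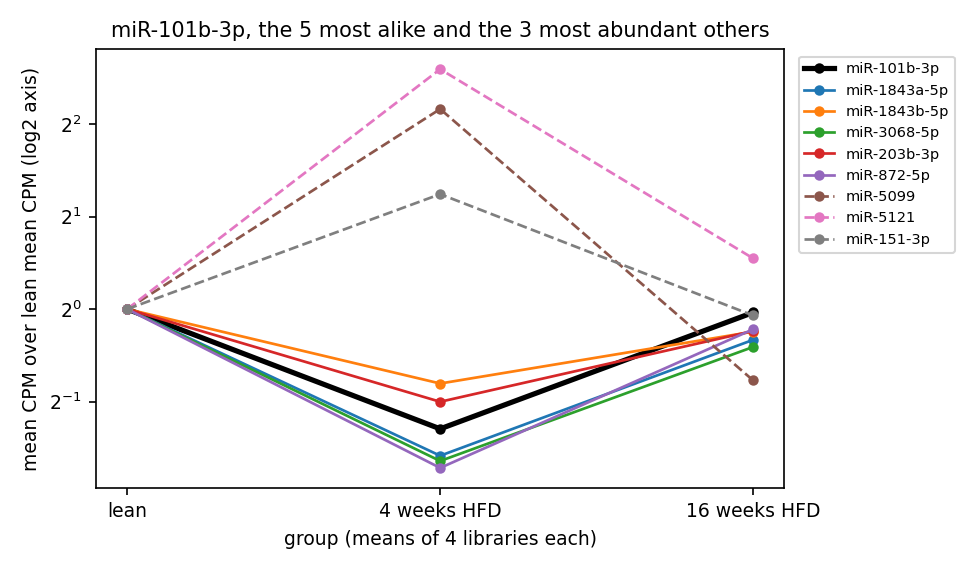
Mean CPM of each miRNA over its own lean mean (log2 axis) in the 3 groups of 4 libraries: miR-101b-3p (thick line), the 5 miRNAs most like it (solid) and the 3 most abundant others (dashed). The solid lines dip at 4 weeks with miR-101b-3p, and the dashed lines peak there.

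Among the 1738 mature entries of the RefSeq table, which cover 1674 of the 1965 listed names, none outside the family had the seed of a 3p form. With 6 of its letters, bases 2 to 7 (in capitals), 2 others were found, which are shown because they could pair with overlapping target sites:
miR-582-5p: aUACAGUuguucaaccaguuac
miR-144-3p: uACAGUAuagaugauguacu
The first shares these letters with miR-101b-3p and had 68.3 CPM in 16-week library 2, 128 CPM in 16-week library 3 and 0 in the other 10. The second, a red blood cell miRNA that shares them with miR-101a-3p, was at 0 in all 12. Of 9 other miRNAs described as repressors of Ezh2, 3 were above 0 anywhere, and limma called 0 of the 2 tested in each of the 3 comparisons. At an unadjusted p under 0.05 it passed 1 of the 2, miR-217-5p, in both comparisons that involve the 4-week group, and 0 for 16 weeks over lean. Over all 267 miRNAs, 93 passed unadjusted for 4 weeks over lean, 79 for 16 over 4 weeks and 50 for 16 weeks over lean, so such a count is not a result about this list. EdgeR over the wider set called 0 in each. DESeq2 called miR-217-5p in both comparisons with the 4-week group, where it called 49 (4 weeks over lean) and 30 (16 over 4 weeks) of the 611 miRNAs it fitted. The level of miR-217-5p was 1645 ± 1291 CPM at 4 weeks and 225 ± 129.7 CPM in lean (SD, n = 4 each; log2 fold change 2.64, limma adjusted p = 0.0619). The other of the 2 tested, let-7c-5p, had 20 reads in all. Its log2 fold changes were 1.45 for 4 weeks over lean, 3.58 for 16 weeks over lean and 2.12 for 16 over 4 weeks (limma, SE 2.47 each). The median log2 fold changes of the 2 were 2.05, 1.82 and -0.23 in the same order, beside -1.27, -0.18 and 1.13 for all 267. The 1.82 for 16 weeks over lean rests on let-7c-5p, since miR-217-5p was at 0.06 there (SE 0.94). The members miR-26a-5p, miR-26b-5p, miR-138-5p and miR-214-3p were at 0 throughout.

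A list chosen for hepatocytes held 17 miRNAs, whose enrichment in these cells was not tested. Of these, 10 were above 0 in some library and 4 passed the filter: miR-101b-3p, miR-192-5p, miR-21a-5p and miR-802-3p. At 4 weeks limma called 0 of the 4 higher and 2 lower than in lean, miR-101b-3p and miR-802-3p, an arm of the obesity-linked miR-802 hairpin, beside 9.36% higher and 11.6% lower of all 267; the first of them is the miRNA the family was selected on. Between the HFD durations it called these 2 higher at 16 weeks, beside 6.37% of all. For 16 weeks over lean limma called 0 of the 4, with 2 at an unadjusted p under 0.05, which 50 of all 267 reached. There edgeR called miR-192-5p and miR-802-3p, among 25 called of 72, and DESeq2 miR-192-5p, among 31 called of 611. The list's median log2 fold change was -0.73 for 4 weeks over lean, beside -1.27 for all tested. It was 0.96 for 16 weeks over lean, beside -0.18, and 1.08 for 16 over 4 weeks, beside 1.13. The level of miR-21a-5p was 4733 ± 1823 CPM at 4 weeks and 5337 ± 2841 CPM in lean (SD, n = 4 each; log2 fold change -0.11, limma adjusted p = 0.836), although DESeq2 called it lower for 4 weeks over lean and both count tools called it higher for 16 over 4 weeks.

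Markers of the labelled cell type differed widely in level. The hepatocyte miRNA miR-122-5p had 3 reads in all, and the 5 hepatocyte markers together reached 145 to 409 CPM in lean libraries, 425 to 899.6 CPM in 4-week libraries and 584 to 1811 CPM in 16-week libraries. That sum is mostly 1 miRNA, miR-192-5p, with 149 reads in all. Besides miR-122-5p, the others had 2 (miR-122-3p), 1 (miR-194-5p) and 3 reads (miR-802-5p). Left out of the sum is miR-802-3p, of the list chosen for hepatocytes. It averaged 4951 CPM in lean, 1425 CPM after 4 weeks of HFD and 11493 CPM after 16 and so took a different course. Of 7 leukocyte miRNAs, 3 were above 0, summing to 6480 to 35220 CPM in lean libraries, 22113 to 41979 CPM in 4-week libraries and 41458 to 67738 CPM in 16-week libraries, with the defining miR-223-3p, miR-142a-3p, miR-142a-5p and miR-150-5p at 0. Stellate cell and fibroblast markers (0 of 5 above 0) were at 0, and endothelial ones (1 of 2) reached at most 26.6 CPM. Markers of cholangiocytes and other epithelium (3 of 5 above 0) summed to 0 to 136 CPM in lean libraries, 223 to 1026 CPM in 4-week libraries and 26.6 to 299 CPM in 16-week libraries, with miR-200b-3p and miR-200c-3p at 0. Red blood cell markers (2 of 4) summed to 26.6 to 134 CPM in lean libraries, 65.3 to 1026 CPM in 4-week libraries and 0 to 68.2 CPM in 16-week libraries. The leukocyte and red blood cell sums include miR-155-5p and miR-486a-5p, whose lean and 16-week values are mostly not whole reads of their own library but of the same-numbered library of the other of these groups, so the lean and 16-week sums are uncertain. The red blood cell sum of 65.3 CPM at 4 weeks is less than 1 read, which is worth at least 223 CPM there. The low end of that range is therefore uncertain too. A listed 0 sets no limit on the level of a marker, since miRNAs that liver is known to express are listed at 0 too. The zeros therefore do not show that a cell type was absent. The part of the differences in marker levels in the 4-week level of miR-101b-3p was not tested.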

How the data were processed

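Small RNA was sequenced in 12 libraries of mouse hepatocyte exosomes. The authors deposited 1 table of CPM, computed by them from the miRNA reads of each library; cutadapt 1.13 and edgeR 3.16.5 were used with mm10, per the submitters' processing notes. Aligner, miRNA annotation and, beyond the unexplained label unique, the handling of ambiguous reads are not given in the sources used here. Of 2664 values above 0, 2617 (98.2%) were whole multiples of the CPM of 1 read in their column (relative tolerance 1e-06), which gave reads and depths; the exceptions lie in 7 miRNAs, none of the miR-101 family, which the count tests left out. In these 7, 23 of 23 such 16-week values were whole reads at the depth of the same-numbered lean library, and 21 of 23 such lean values at that of the same-numbered 16-week library. The 1 such 4-week value was a whole read at the depth of no same-numbered library. The count test on recovered reads (edgeR) called 40 of 72 miRNAs for 4 weeks over lean.

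The main test was limma 3.58.1 under R 4.3.3, on log2(CPM + 1) of miRNAs that reached 10 CPM in 4 or more libraries, in 1 fit with a mean-variance trend, and p-values were adjusted by Benjamini-Hochberg over all of them (threshold 0.05). One read was worth 26.6 CPM in the deepest library and 425 CPM in the shallowest. Where a library is at 0, a fold on this scale therefore depends on the 1 CPM added. It can then be large for a difference of 1 read. Shares were tested by exact permutation. Alternatives included pseudocounts, filters, scalings, edgeR 4.0.16 and DESeq2 1.42.0 on recovered reads, and leaving out libraries. The limma and edgeR steps were tested on simulated data. Of the 1965 names, 1674 matched the RefSeq table; hosts come from GENCODE's mouse annotation of GRCm38.

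The members, lists and naming rule were chosen with earlier results of these data known. The rule names the 5 members, the 5 miRNAs most like miR-101b-3p, the 3 most abundant others, and the called and most abundant members of each list.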

Additional observations from a re-analysis of the deposited data

Results flagged for a closer look

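In 41 sets of 4 libraries, a library standing far from the other 3 was looked for (chance flags about 1 in 20 such sets), and 2 were found, both in lean replicate 4. Its miR-101c level of 204 CPM, which is 3 reads, stood apart from the other lean libraries, and so did its miR-5121 level of 49076 CPM.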

How the results depend on the processing

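The log2 fold change of miR-101b-3p kept its direction and its side of the threshold in 25 of 26 other settings for 4 weeks over lean and for 16 over 4 weeks; the exception in both was the fit without the mean-variance trend (-1.36 and 1.32). Leaving out 1 library gave -1.56 to -1.16 and 1.12 to 1.53. At 16 weeks against lean the sign of the uncalled value turned with edgeR over the wider filter, chosen after the data were seen (0.19), and leaving out 1 library gave -0.095 to 0.029, with the share difference at -4.67 to 0.63 percentage points. For miR-101b-5p at 4 weeks against lean, pseudocounts of 10 and 100 CPM brought a call (3.09 and 1.67); leaving out 1 library gave 2.58 to 4.71 there, 0.72 to 2.85 for 16 weeks over lean and -2.41 to -1.26 for 16 over 4 weeks, none called. The differences of medians of the miR-101b-3p share (-37.8 percentage points for 4 weeks over lean, 36.9 for 16 over 4 weeks) and of the 5p share (0.173 and -0.162) had exact permutation adjusted p = 0.0857. The 5p share difference was 0.134 to 0.187 and -0.171 to -0.117 without 1 library. The cause of these changes was not tested.

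Replicate numbers are shared between groups, but same-numbered libraries did not deviate together (correlations -0.07 to 0.06 over 12 pairs), so they pair nothing. With the replicate block the miR-101b-3p log2 fold changes stayed called (-1.36 and 1.32), and the exact sign-flip permutation tests of the share (-37.1 and 34.9) and of the 5p share (0.154 and -0.137) missed the threshold, which 4 pairs cannot reach (smallest p = 0.125). The number of miRNAs called at 16 weeks against lean was 7, but 14 with a pseudocount of 10 CPM or no trend, 18 with 100 CPM, 21 in the 2 groups alone, 25 and 36 with edgeR (own and wider filter), 31 with DESeq2 and 3 to 11 without 1 library; at 16 against 4 weeks it was 28, and 44 without 4-week replicate 4. DESeq2 and edgeR with its own filter gave no adjusted value for miR-101c, and edgeR with its own filter none for miR-101b-5p. Depth limits the 5p arm and miR-101c, where 1 read is worth 223 to 425 CPM at 4 weeks.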
